A study of Homo sapiens with 6 samples.

Results

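The DLK1-MEG3 domain is a run of imprinted genes on the long arm of human chromosome 14, at 14q32. Its 6 genes described here, DLK1, MEG3, MEG8, MEG9, RTL1 and DIO3, were taken by symbol from a table of 61487 genes, and all 6 were found in it. The cells were K562, a line from human chronic myeloid leukaemia that carries the BCR-ABL1 fusion. RNA from 3 libraries of azacitidine-sensitive K562 cells was compared with RNA from 3 libraries of azacitidine-resistant K562 cells. The resistant cells were derived from the sensitive line under rising azacitidine concentrations over several months. Both kinds of cells were grown in the same RPMI medium, and the labels list no drug treatment before RNA extraction. Azacitidine is a cytidine analogue that traps DNA methyltransferases. Resistance cannot be told apart here from any other change that arose in this derived population. The libraries are labelled as biological replicates, and nothing says that they came from separate cultures, so the p-values reflect only how much these 6 libraries vary.

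In an imprinted domain the copies inherited from the mother and the father differ in DNA methylation and are transcribed differently. In this domain the protein-coding genes DLK1, RTL1 and DIO3 are known to be transcribed from the paternal copy. The non-coding RNAs MEG3, MEG8 and MEG9, a large cluster of C/D box small nucleolar RNAs (snoRNAs) and a cluster of microRNAs are known to be transcribed from the maternal copy, all in the same direction. The counts do not separate the parental copies, and DNA methylation was not measured in these libraries. In bulk samples, fewer cells that make an RNA and less of it per cell cannot be told apart.

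Total counts ranged from 33007642 to 43006918 per library. Levels are given as CPM, the counts of a gene scaled to a common library total, after correction by TMM, a factor that offsets differences in library composition. Genes were called higher or lower (always resistant against sensitive) by edgeR's quasi-likelihood test with a threshold of 0.05 on the adjusted p, with Benjamini-Hochberg adjustment over the 20891 genes that passed a filter on low counts. Of those genes 23.0% were called, 9.83% higher and 13.1% lower, and the median log2 fold change was 0.03. The share of mitochondrial ribosomal RNA was 12.8% to 16.2% among sensitive libraries, 17.8% in resistant replicate 1, 16.8% in resistant replicate 2 and 8.54% in resistant replicate 3. Of 14 erythroid and K562 markers, 13 were tested. BCR and ABL1 were higher, LMO2 was lower, and the summed level of the list was 1224 to 2098 CPM in sensitive and 1615 to 2179 CPM in resistant libraries. T cell markers stood out among the markers of other cells: the 3 tested, CD3D, CD3G and CD3E, were all lower, with a summed level of 22.4 to 113.5 CPM in sensitive and 1.78 to 2.49 CPM in resistant libraries. CD8A had 0 counts in every library, and CD2 and TRAC had at most 4 counts in any. Of the other markers tested, 1 of 3 B cell genes was lower, and the 4 stromal and the 3 epithelial genes each had 1 higher and 1 lower. Of 2 tested fetal liver and trophoblast genes, 1 was lower. The part of these markers in the results below was not tested.

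Among the 6 genes, 1 was called lower in resistant cells and none higher. MEG8 fell 1.82-fold, from 447 ± 50.7 to 245 ± 20.5 CPM (SD, n = 3 per group). MEG3, MEG9 and RTL1 had lower means in resistant cells and DLK1 a higher mean, and these 4 differences did not pass the test. DIO3 had no counts in any library and was not tested. With 1 of 5 tested genes called lower, the share is not far from the 13.1% called lower among all genes. The groups did not overlap for MEG8 and MEG9, 2 of 5, while 40.1% of all tested genes had groups that did not overlap.

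**Figure D1:**
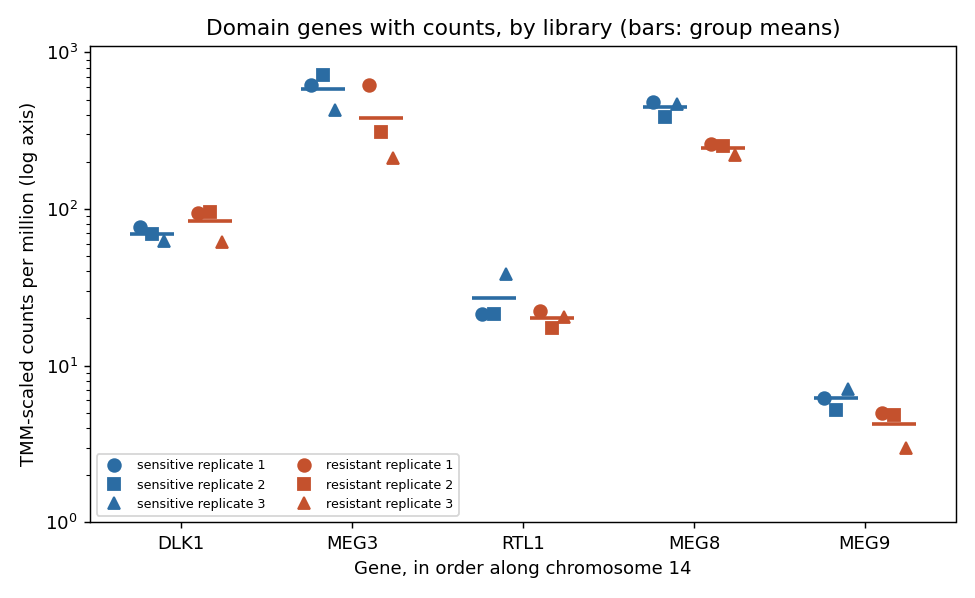
Level of DLK1, MEG3, RTL1, MEG8 and MEG9 in each of the 6 libraries, in TMM-scaled CPM on a log axis, with genes in their order along chromosome 14. Blue symbols are sensitive and red symbols resistant libraries, the symbol's shape gives the replicate number, and bars are group means. The MEG8 values are 389 to 485 CPM in sensitive and 222 to 261 CPM in resistant cells, while the groups overlap for DLK1, MEG3 and RTL1.

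MEG8 is a long non-coding RNA gene on the plus strand (chr14:100894770-101038859, GRCh38, GENCODE 29), and its region holds the snoRNA cluster. Its level was 485, 389 and 466 CPM in sensitive replicates 1, 2 and 3, and 261, 252 and 222 CPM in resistant replicates 1, 2 and 3. Every resistant library lay below every sensitive library. The log2 fold change of −0.87 ± 0.17 (SE) passed the test (edgeR adjusted p = 0.00593). An exact two-sided permutation test on MEG8 alone gave p = 0.1, the smallest that 3 libraries against 3 can give. MEG8 stayed below an adjusted p of 0.05 in all 16 alternative analyses, at log2 fold changes from −0.98 to −0.70.

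MEG3 (chr14:100779410-100861031, plus strand) is a long non-coding RNA gene whose RNA is reported to bind Polycomb proteins and to act on p53. Its level was 616, 716 and 426 CPM in the sensitive replicates, against 621, 309 and 213 CPM in the resistant replicates. Resistant replicate 1 lay within the sensitive range, and resistant replicates 2 and 3 lay below it. The means were 586 ± 147 and 381 ± 213 CPM, and the log2 fold change of −0.62 ± 0.36 (SE) did not pass the test (edgeR adjusted p = 0.254). Without resistant replicate 1 the log2 fold change was −1.16, with an edgeR adjusted p of 0.019. With that library kept, MEG3 passed with no filter on low counts (−0.65, edgeR adjusted p = 0.0244), and it passed in 3 of 16 alternatives in all.

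The sequence around a start of MEG3 is given because MEG8, MEG9 and the SNORD113 and SNORD114 genes lie downstream of it on the same strand. RefSeq lists 3 start windows for MEG3, each 250 bases before to 50 after a start, and this window lies at chr14:100825858-100826157 on the plus strand of GRCh38.p14. The capitals mark TGACGTCA, the palindromic core of the cAMP response element, which was searched on both strands.

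MEG3 start window: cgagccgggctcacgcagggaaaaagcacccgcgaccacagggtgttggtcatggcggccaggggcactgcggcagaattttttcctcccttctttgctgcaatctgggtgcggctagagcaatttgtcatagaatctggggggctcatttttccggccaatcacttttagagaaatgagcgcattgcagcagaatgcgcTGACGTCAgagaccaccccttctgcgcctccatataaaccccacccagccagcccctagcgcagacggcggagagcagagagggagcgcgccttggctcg

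The window holds 19 CG dinucleotides, against a median of 14 over genes with a window, and CG is the pair of bases that DNA methyltransferases modify. The TGACGTCA motif occurs in 2.25% of the 27305 genes with a window (614 genes). The windows of RTL1, MEG9 and DIO3 hold 6, 4 and 28 CG dinucleotides and no TGACGTCA. Whether any protein binds the MEG3 motif was not measured.

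MEG9 (chr14:101064151-101072937, plus strand) is a long non-coding RNA gene that lies among the microRNAs. It was the least abundant of the 5 genes with counts, at 6.25, 5.19 and 7.12 CPM in sensitive and 4.95, 4.82 and 2.99 CPM in resistant replicates. The groups did not overlap, with a narrow gap between sensitive replicate 2 and resistant replicate 1. The log2 fold change of −0.54 ± 0.27 (SE) did not pass the test (edgeR adjusted p = 0.179).

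DLK1 (chr14:100725705-100738224, plus strand) encodes a transmembrane protein with EGF-like repeats that resembles the Notch ligands and is made in fetal tissues and progenitor cells. It was at 77.3, 69.0 and 62.9 CPM in the sensitive replicates, against 94.7, 95.1 and 61.7 CPM in the resistant replicates. Resistant replicates 1 and 2 were the highest of the 6 libraries and resistant replicate 3 the lowest. The log2 fold change of 0.27 ± 0.19 (SE) did not pass the test (edgeR adjusted p = 0.355). Without both libraries numbered 3 it was 0.36, with an edgeR adjusted p of 0.019.

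RTL1 (chr14:100879753-100903722, minus strand) encodes a protein derived from a retrotransposon's Gag and Pol genes that is needed in the placenta. Its level was 21.3, 21.4 and 38.3 CPM in the sensitive replicates, against 22.2, 17.4 and 20.5 CPM in the resistant replicates. Sensitive replicate 3 was the highest, and the other 5 libraries lay between 17.4 and 22.2 CPM. The log2 fold change of −0.43 ± 0.24 (SE) did not pass the test (edgeR adjusted p = 0.236), and without sensitive replicate 3 it was −0.10.

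RTL1 faces an antisense RNA of the maternal copy, and its span overlaps that of MEG8 by 8953 bases. The library kit marked strand, but the strand setting of the counting is not given in the sources used here. All 5 microRNA genes inside RTL1's exon on the opposite strand, MIR127, MIR136, MIR431, MIR432 and MIR433, had 0 counts. Across the table, 328 of 343 genes lying wholly inside an exon of a well-counted gene on the opposite strand had 0 counts (95.6%), as did 463 of 468 inside one on the same strand (98.9%) and 34.4% of genes not lying inside another's exon. Reads from RTL1 and from its antisense RNA can therefore not be told apart in these counts.

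DIO3 (chr14:101561351-101563452, plus strand) encodes the deiodinase that inactivates thyroid hormone. Over all 6 libraries it had 0 of 226217371 counts, which allows a level of up to 0.0133 CPM (3 counts of the total, for counting error only). This limit holds for the 6 libraries joined, and that of either group alone is higher. Its antisense neighbour DIO3OS had 2 counts, both in resistant replicate 2. RNA of DIO3 was not detectable at this depth in either group.

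Per kilobase of exon, the order of the mean levels in sensitive cells was MEG8 (40.2 CPM per kilobase), MEG3 (25.2), DLK1 (13.1), RTL1 (5.01) and MEG9 (1.93). The order was the same in resistant cells, with MEG8 at 22.0, MEG3 at 16.4, DLK1 at 15.8, RTL1 at 3.72 and MEG9 at 1.32 CPM per kilobase. In sensitive cells the library ranges of these levels did not overlap between neighbours, which were 35.0 to 43.7, 18.4 to 30.8, 11.8 to 14.5, 3.94 to 7.10 and 1.62 to 2.22 CPM per kilobase. In resistant cells MEG3, at 9.17 to 26.8, overlapped with both MEG8, at 19.96 to 23.5, and DLK1, at 11.6 to 17.9 CPM per kilobase. These levels divide by the joined length of all annotated exons and not by that of the isoforms used.

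Because MEG3, MEG8 and DLK1 were counted in the same libraries, their ratios do not depend on the scaling between libraries. There were 7.97, 10.4 and 6.78 MEG3 counts per DLK1 count in the sensitive replicates and 6.56, 3.25 and 3.45 in the resistant replicates. For MEG8 there were 6.28, 5.64 and 7.41 counts per DLK1 count in sensitive and 2.75, 2.65 and 3.59 in resistant replicates. Both ratios were lower in every resistant than in every sensitive library, although the gap for MEG3 lies between 6.56 and 6.78. Exact two-sided permutation tests of the mean difference gave p = 0.1 for each, the smallest possible, and 0.28 after adjustment over the 7 ratios computed. MEG8 counts per MEG3 count overlapped between groups, at 0.787, 0.543 and 1.09 in sensitive and 0.420, 0.815 and 1.04 in resistant replicates.

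From DLK1 to DIO3, a stretch of 838 kilobases, the table holds 124 genes, of which 86 had counts and 60 passed the filter on low counts. Of the 60, 11 were called lower in resistant cells and 0 higher, against 13.1% and 9.83% of all tested genes. The log2 fold change was below 0 for 57 of the 60, against 48.4% of all tested genes, and the median was −0.90. The groups did not overlap for 30 of the 60, against 40.1% of all tested genes. A gene with few counts can pass the filter through its higher group alone, so these counts describe only the genes that passed. The number called lower was 6, 3 and 5 without sensitive replicates 1, 2 and 3 and 3 without resistant replicate 2, and 4 when library totals replaced the TMM factors.

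**Figure D2:**
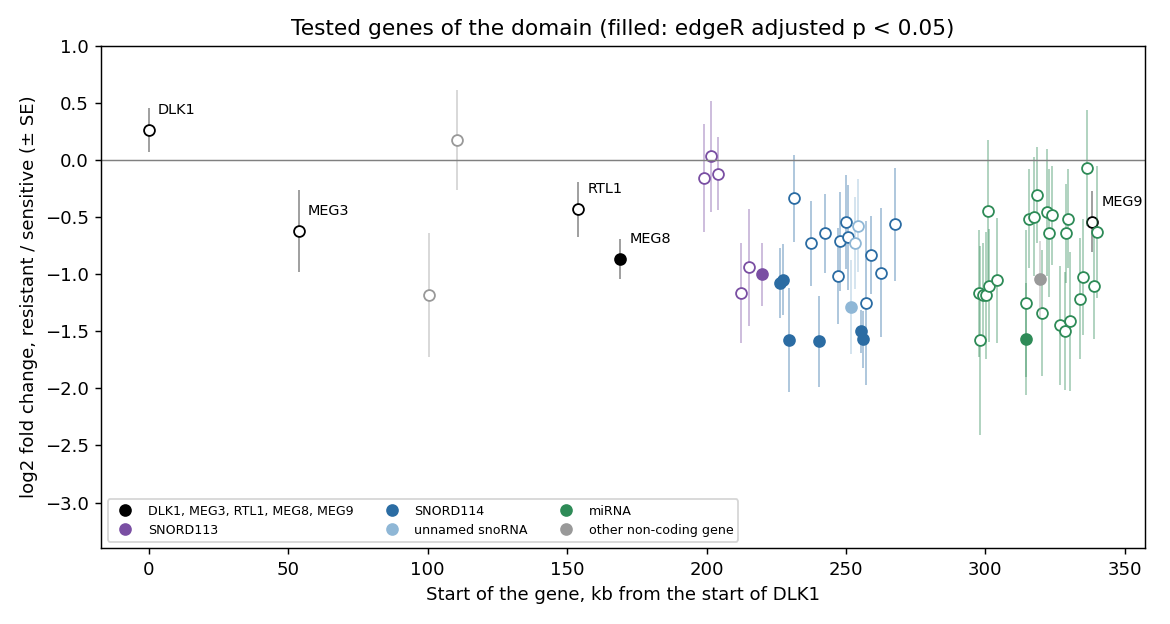
Log2 fold change (resistant against sensitive) of the 60 tested genes of the domain, with its SE as a bar, by the distance in kilobases of each gene's start from the start of DLK1. Filled points passed an edgeR adjusted p below 0.05 and colours mark the kind of gene. DLK1 is above 0, SNORD113-1, SNORD113-2 and SNORD113-3 are near 0, and all SNORD114 and microRNA genes tested are below 0. Genes with few counts can pass the filter through their higher group alone.

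Most snoRNA genes within the span of MEG8 belong to the families SNORD113 and SNORD114, which are made from introns and carry the short C and D boxes that C/D box snoRNAs need to be bound by their proteins. The following sequences show 2 SNORD113 genes that were not called, at −0.16 and −0.12, and 3 SNORD114 genes that were called lower. They do not stand for their families, since SNORD113-9 was called lower too and SNORD114-6 (−0.34) was not called. Each is the plus-strand GENCODE 29 transcript on GRCh38, written with T for U, with capitals on the first TGATGA (C box) and the last CTGA (D box). SNORD113-1 lies at chr14:100924824-100924892, SNORD113-3 at chr14:100929919-100929990, SNORD114-9 at chr14:100966029-100966100, SNORD114-20 at chr14:100981004-100981075 and SNORD114-21 at chr14:100981975-100982046.
SNORD113-1: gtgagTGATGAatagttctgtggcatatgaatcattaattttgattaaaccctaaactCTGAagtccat
SNORD113-3: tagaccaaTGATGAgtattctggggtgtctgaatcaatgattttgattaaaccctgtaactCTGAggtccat
SNORD114-9: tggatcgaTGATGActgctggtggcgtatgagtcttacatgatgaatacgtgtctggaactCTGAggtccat
SNORD114-20: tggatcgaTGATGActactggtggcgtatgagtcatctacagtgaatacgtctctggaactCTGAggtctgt
SNORD114-21: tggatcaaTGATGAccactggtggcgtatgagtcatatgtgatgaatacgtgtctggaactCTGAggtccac

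SNORD114-20 and SNORD114-21 are identical at 61 of 72 positions (84.7%), and SNORD114-9 is identical to them at 86.1% and 90.3%. Reads shared between such copies may have been split or dropped in the counting, so the values of single copies are uncertain. TGATGA followed by CTGA on the transcript strand occurs in 32 of the 47 snoRNA genes of the domain (68.1%) and in 31.6% of the 943 snoRNA genes of GENCODE 29, which include H/ACA snoRNAs.

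SNORD114-20 was the most abundant snoRNA gene of the domain, at 49.4, 49.2 and 59.1 CPM in the sensitive replicates, against 15.8, 16.7 and 23.2 CPM in the resistant replicates. Its log2 fold change of −1.50 ± 0.19 (SE) passed the test (edgeR adjusted p = 0.000410). SNORD114-21 was at 13.9, 13.6 and 18.1 CPM in the sensitive replicates, against 4.17, 4.32 and 6.86 CPM in the resistant replicates. For both genes every resistant library lay below every sensitive library. SNORD114-21 had a log2 fold change of −1.57 ± 0.25 (SE) and an edgeR adjusted p of 0.00163. These 2 genes stayed below an adjusted p of 0.05 in all 15 alternative analyses that could test them.

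Across SNORD114, 17 of 30 genes were tested and 6 were called lower, against 13.1% of all tested genes. All 17 log2 fold changes were below 0, against 48.4% of all tested genes, and their median was −0.98. Genes with few counts can pass the filter through their higher group alone, so these numbers describe only the genes that passed. The other 4 called lower were SNORD114-2 (3.42 to 1.62 CPM), SNORD114-3 (4.55 to 2.203 CPM), SNORD114-5 (1.10 to 0.367 CPM) and SNORD114-9 (1.38 to 0.455 CPM). SNORD114-6, SNORD114-7, SNORD114-11, SNORD114-15, SNORD114-16, SNORD114-18, SNORD114-19, SNORD114-22, SNORD114-24, SNORD114-27 and SNORD114-31 did not pass, at −0.34 (SNORD114-6) to −1.25 (SNORD114-22). Summed over all 30 genes, SNORD114 was at 88.5, 83.7 and 104 CPM in the sensitive replicates, against 35.9, 34.9 and 40.2 CPM in the resistant replicates. The sum was 2.49-fold lower in resistant cells without overlap of the groups. SNORD114-20 and SNORD114-21 made up most of it, at 67.8 of 92.2 CPM in sensitive and 23.7 of 37.0 CPM in resistant cells. Without these 2 genes, the snoRNA genes of the domain, SNORD113 included, summed to 41.75 ± 5.14 and 25.2 ± 7.36 CPM. That sum was 1.655-fold lower in resistant cells, also without overlap.

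Across SNORD113, 6 of 9 genes were tested and 1 was called lower, against 13.1% of all tested genes. The median log2 fold change of the 6 was −0.55. SNORD113-9 fell from 3.30 to 1.65 CPM (edgeR adjusted p = 0.0270). SNORD113-1, SNORD113-2 and SNORD113-3, at the end of the cluster nearest to MEG3, had log2 fold changes of −0.16, 0.04 and −0.12. SNORD113-5 and SNORD113-7 were at −1.17 and −0.94 and did not pass. Summed over the 9 genes, SNORD113 was at 12.1, 10.2 and 12.9 CPM in the sensitive replicates, against 11.3, 9.14 and 5.45 CPM in the resistant replicates, and the groups overlapped. Whether SNORD113 and SNORD114 differ in their response was not tested.

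The resistant libraries did not share the same order along the domain. Resistant replicate 1 exceeded resistant replicate 3 by 2.92 times at MEG3, 3.82 times at SNORD113-1 and 4.10 times at SNORD113-2. The same quotient was 1.18 at MEG8, 0.682 at SNORD114-20 and 0.608 at SNORD114-21. Within SNORD113 it was also 1.65 at SNORD113-3 and 1.11 at SNORD113-9. Further along it was 2.35 at SNORD114-6, 3.02 at ENSG00000201036 and 4.05 at MIR1193, so it did not fall steadily along the domain. Among 1654 tested genes with at least 10 kilobases of exon, the median deviation from the group mean on the log2 scale was 0.11 in resistant replicate 1 and −0.16 in resistant replicate 3, while that of MEG3 was 0.85 and −0.69. The part of this difference between libraries in the values of MEG3 was not tested.

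**Figure D3:**
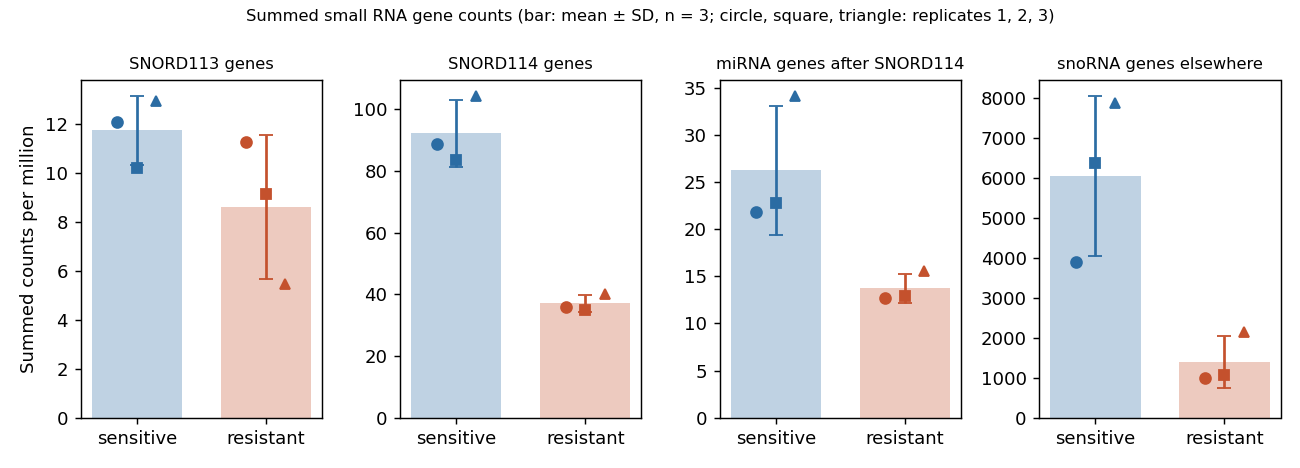
Summed level of the SNORD113 genes, the SNORD114 genes, the microRNA genes after SNORD114 and all snoRNA genes elsewhere in the genome, in CPM. Bars are means with SD over 3 libraries, and circles, squares and triangles are replicates 1, 2 and 3. The SNORD114 sum is 92.2 ± 10.8 in sensitive and 37.0 ± 2.78 in resistant cells, and the sum elsewhere is 6041 ± 2007 and 1394 ± 641. SNORD114-20 and SNORD114-21 hold 67.8 and 23.7 CPM of the SNORD114 sum in sensitive and resistant cells.

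Small nucleolar RNA genes outside the domain also differed in their summed level. The 895 such genes summed to 3896, 6356 and 7872 CPM in the sensitive replicates, against 990, 1059 and 2134 CPM in the resistant replicates, 4.33-fold lower in resistant cells. By contrast, the median log2 fold change of the 106 tested was 0.37, so the sum and the median differ in sign. Of those 106, 5 were called higher and 3 lower (2.83%), beside 0 and 8 of the 26 snoRNA genes tested in the domain, whose median was −0.89. The 8 were the 6 SNORD114 genes, SNORD113-9 and an unnamed snoRNA gene, ENSG00000201500 (−1.29, edgeR adjusted p = 0.0473). The unnamed snoRNA genes ENSG00000201036 and ENSG00000201710, at −0.72 and −0.58, did not pass. The part of the change in summed snoRNA in the values of the domain was not tested.

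MicroRNAs are cut from hairpins of longer transcripts and pair with their targets mainly through the seed, bases 2 to 8. The libraries were made from total RNA, so the rows count reads on hairpin genes and the mature microRNA was not measured. All 54 microRNA genes of the domain matched the RefSeq table (GRCh38.p14), with 94 mature sequences and 83 different seeds, 10 of which are shared by more than 1 mature sequence. The sequences below are those of MIR654, the microRNA gene called lower, and of genes of the cluster that share a seed with each other, with the seed in capitals.
hsa-miR-654-5p: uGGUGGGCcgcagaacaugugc
hsa-miR-541-3p: uGGUGGGCacagaaucuggacu
hsa-miR-654-3p: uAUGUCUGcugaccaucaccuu
hsa-miR-300: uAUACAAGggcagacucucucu
hsa-miR-381-3p: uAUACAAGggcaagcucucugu

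MIR654 had 51, 96 and 116 counts in the sensitive replicates, against 15, 32 and 46 counts in the resistant replicates. That is 1.24, 2.88 and 3.10 CPM against 0.415, 0.804 and 1.20 CPM, with every resistant library below every sensitive library. The log2 fold change of −1.57 ± 0.49 (SE) passed the test (edgeR adjusted p = 0.0439). MIR541, whose 3′ product shares its seed with the 5′ product of MIR654, had a log2 fold change of −1.11 and did not pass (edgeR adjusted p = 0.115). MIR300 and MIR381, which share the other seed shown, were at −0.51 and −1.34 and did not pass either.

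After SNORD114, 26 of 43 microRNA genes were tested and 1 was called lower, against 13.1% of all tested genes. All 26 log2 fold changes were below 0, against 48.4% of all tested genes, and their median was −1.08. A gene with few counts can pass the filter through its higher group alone. MIR299, for example, had 15, 14 and 18 counts in sensitive and 5, 11 and 0 in resistant replicates. The signs and the median therefore describe only the genes that passed. Of 59 microRNA genes tested elsewhere, 4 were called higher and 1 lower (1.69%), with a median of 0.31. The lowest values without a call were at MIR299 (−1.58), MIR382 (−1.50), MIR487A (−1.45) and MIR323B (−1.41), and the highest was at MIR377 (−0.07). MIR411, MIR380, MIR758, MIR329-2, MIR1193, MIR376B, MIR154 and MIR496 lay between −1.25 and −1.02. MIR329-1, MIR1185-1, MIR1185-2, MIR889, MIR544A, MIR655, MIR134, MIR668 and MIR410 lay between −0.64 and −0.31. The sum over the 43 genes was 21.8, 22.7 and 34.1 CPM in the sensitive replicates, against 12.7, 12.9 and 15.5 CPM in the resistant replicates, 1.91-fold lower without overlap. The 11 microRNA genes before SNORD113 had too few counts for a test, with 7 at 0.

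Of the other non-coding genes, MIR381HG, which lies over the MIR381 hairpin, was at 3.95, 2.88 and 4.57 CPM in the sensitive replicates, against 2.49, 1.28 and 1.78 CPM in the resistant replicates. Its log2 fold change of −1.04 ± 0.34 (SE) passed narrowly, with an adjusted p just under 0.05. MIR493HG, at 0.18, and ENSG00000274884, at −1.18, did not pass. MIR770, MIR2392 and MIR1247 had 0 counts. Of the 11 genes called lower, MEG8, SNORD114-20 and SNORD114-21 kept the call in every alternative that could test them, and each of the other 8 lost it in 2 to 10.

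The plus-strand non-coding genes from MEG3 on were also summed, since reads of a long transcription unit can be split among the genes annotated on it. The 113 genes summed to 1240, 1237 and 1063 CPM in the sensitive replicates, against 956, 628 and 503 CPM in the resistant replicates. All 3 resistant libraries lay below the sensitive ones, and the means of 1180 ± 101 and 696 ± 234 CPM differed 1.70-fold. Without MEG3 the sums were 594 ± 63.7 and 315 ± 22.6 CPM, 1.89-fold lower with less spread among resistant libraries. MEG3 and MEG8 make up most of the sum, so it adds little to their own values.

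Beside the domain, the table was read to 1226 kilobases before DLK1 and 1437 kilobases after DIO3. Of the 34 genes tested there, 4 were called higher and 3 lower, against 9.83% and 13.1% of all tested genes. The median log2 fold change of the 34 was 0.03. The nearest tested gene before DLK1, BEGAIN, which encodes a protein of synapses, did not pass (−0.59, edgeR adjusted p = 0.406). After DIO3 the nearest were the pseudogene ENSG00000241494 (−0.04), LINC00239 (−1.01) and PPP2R5C (−0.04), a regulatory subunit gene of protein phosphatase 2A, and none of them passed.

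WARS1, the cytosolic tryptophanyl-tRNA synthetase gene, lies 349 kilobases before DLK1 and fell from 692 ± 13.6 to 235 ± 63.3 CPM (SD, n = 3), a log2 fold change of −1.56 (edgeR adjusted p = 0.000832). DEGS2, a sphingolipid desaturase and hydroxylase gene, fell from 4.69 to 0.743 CPM (−2.65, edgeR adjusted p = 0.00268). Between them lies YY1, a zinc finger transcription factor gene, which rose from 78.0 ± 3.95 to 116 ± 6.94 CPM (0.57, edgeR adjusted p = 0.0162). After DIO3, HSP90AA1, which encodes the inducible HSP90 chaperone, rose from 203 ± 68.6 to 434 ± 81.3 CPM (1.10, edgeR adjusted p = 0.0147). LINC02323 fell (−1.16). AMN (2.37) rose from 0.0785 to 0.427 CPM and ENSG00000258620 (1.89) from 0.257 to 0.968 CPM, so their means were below 1 CPM in each group. LINC02323 lost the call in 5 of 16 alternatives, and AMN and ENSG00000258620 each lost it in 4 of 15. The number called higher in these flanks, 4, became 0, 1 and 2 without sensitive replicates 1, 2 and 3, 1 without resistant replicate 2, and 7 without resistant replicate 3.

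Genes of pathways around the domain were read from lists written for this locus with earlier results of these data known. Of 134 genes tested on the 7 lists, 24 were called higher and 22 lower. The number called higher was 9 and 12 without sensitive replicates 1 and 2, and 14 and 10 without resistant replicates 1 and 2. Without both libraries numbered 3 it was 37, with 39 called lower. The counts of each list are set below beside the 9.83% called higher and 13.1% called lower among all tested genes.

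Of 20 tested factors that keep or read imprinting marks, 5 were higher and 0 lower, against 9.83% and 13.1% of all tested genes. The median log2 fold change of the list was 0.41. UHRF1, which brings DNA methyltransferase 1 to newly copied DNA, rose from 73.8 ± 10.3 to 166 ± 16.9 CPM (1.17, edgeR adjusted p = 0.000920). TET3 and TET1 encode enzymes that oxidise methylcytosine. TET3 rose by 0.73 on the log2 scale (edgeR adjusted p = 0.0306) and TET1 by 0.55 (edgeR adjusted p = 0.0499), and TET1 lost the call in 8 of 16 alternatives, among them DESeq2 (adjusted p = 0.0532) and limma-voom (adjusted p = 0.0631). TRIM28, a corepressor that zinc finger proteins bring to imprinted regions, rose by 0.49 (edgeR adjusted p = 0.0495) and lost the call in 9 of 16 alternatives. YY1, described above, is also on the list. ZNF445, which encodes a zinc finger protein that guards imprints, went from 57.2 to 80.2 CPM and did not pass (edgeR adjusted p = 0.101). The number of this list called higher, 5, was 1 without sensitive replicate 1 (UHRF1) or resistant replicate 2 and 2 without sensitive replicate 2 or resistant replicate 1.

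Among Polycomb genes and proteins reported to bind MEG3, 2 of 13 tested genes were higher and 0 lower. Of all tested genes 9.83% were higher and 13.1% lower. AEBP2, a cofactor of Polycomb repressive complex 2, rose from 12.3 ± 1.49 to 25.3 ± 3.06 CPM (edgeR adjusted p = 0.00230). SUZ12, a core subunit, rose from 81.2 to 113 CPM with an edgeR adjusted p just under 0.05. The catalytic subunit gene EZH2 went from 140 ± 32.5 to 157 ± 7.28 CPM and EED, the third core subunit, from 37.1 to 34.0 CPM, and neither passed. With any library but resistant replicate 3 left out, the list had 1 gene called higher. Among p53 targets 1 of 14 tested genes was higher, MDM2, and 5 were lower, SESN2, FAS, BBC3 and GADD45A among them, with a median of −0.56. None was called higher without sensitive replicate 1 or 2 or resistant replicate 2, and 8 were called lower without sensitive replicate 3. K562 cells are known to lack functional p53.

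Notch receptors, ligands and targets were listed because DLK1 resembles the Notch ligands. Of 40 tested genes 9 were lower and 5 higher, against 13.1% and 9.83% of all tested genes. The median of the list was −0.26. The receptor gene NOTCH2 fell from 51.2 ± 5.86 to 8.65 ± 1.06 CPM (SD, n = 3), a log2 fold change of −2.57 (edgeR adjusted p = 8.29e-06). The Notch target genes HES1 and HEY1 fell from 66.7 ± 13.9 to 24.5 ± 4.39 CPM and from 10.4 ± 4.51 to 1.01 ± 0.703 CPM, while HEY2, a target of the same family, rose from 0.0826 ± 0.0762 to 0.775 ± 0.138 CPM (3.20, edgeR adjusted p = 0.0135). ADAM17, which encodes a shedding protease that also cuts DLK1, fell from 106 ± 5.29 to 58.1 ± 7.67 CPM (edgeR adjusted p = 0.00288). The ligand gene JAG1 rose from 1.28 ± 0.570 to 5.26 ± 0.589 CPM (2.05, edgeR adjusted p = 0.00287). The number of Notch genes called higher was 1 and 2 without sensitive replicates 1 and 2, and 3 and 1 without resistant replicates 1 and 2.

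Thyroid hormone genes were listed for DIO3. Of 15 tested genes 3 were higher and 1 lower, against 9.83% and 13.1% of all tested genes. Without resistant replicate 3 the counts were 6 and 2, and without sensitive replicate 3 they were 2 and 2. The transporter gene SLC16A10 fell from 13.5 to 4.31 CPM (−1.64), while RXRA, which encodes the partner receptor of the thyroid hormone receptors, rose from 20.1 to 37.0 CPM (0.88). SLC7A8, an amino acid transporter gene whose product also carries thyroid hormone, rose by 1.57 on the log2 scale (edgeR adjusted p = 0.00843). MED1, a Mediator subunit gene, rose by 0.50 (edgeR adjusted p = 0.0455) and lost the call in 8 of 16 alternatives. Of the other deiodinase genes, DIO1 was at 0.404 and 0.963 CPM and did not pass, and DIO2 had 7 counts in all. Among genes derived from retrotransposons, as RTL1 is, 2 of 10 tested genes were higher, PNMA1 (0.63) and PEG10 (2.60, from 0.154 to 0.922 CPM), and 0 were lower. None of them was called higher without sensitive replicate 1 or resistant replicate 1, and 1 without sensitive replicate 2 or 3 or resistant replicate 2.

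Imprinted genes on other chromosomes moved in both directions, with 7 of 23 tested genes higher and 7 lower. Of all tested genes 9.83% were higher and 13.1% lower, and the median of the list was 0.10. The number called higher was 4 without sensitive replicate 1 or resistant replicate 2. H19 and ZDBF2 rose by 4.65 and 2.24 on the log2 scale, and PLAGL1, CDKN1C and SNHG14 had log2 fold changes of −2.53, −2.63 and −3.37 (edgeR adjusted p from 1.37e-06 to 0.000173). The log2 fold changes of MEG8 and MEG3, at −0.87 and −0.62, were smaller in size than these 5. The 5 were picked by their small adjusted p, so they stand for the extreme of that list.

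The genes whose pattern over the 6 libraries was most like that of each tested gene were found by Euclidean distance between centred log2 CPM values, over 17369 named genes. For MEG8 they were NECTIN2 (distance 0.17), DOK4 (0.17) and SNORD114-24 (0.19), the last from the domain itself. DLK1 was nearest to WASL (0.12), ZNF652 (0.15) and ZC3H7A (0.17), and MEG3 to ISX (0.34), MYO15A (0.36) and TMEM88 (0.36). Near MEG9 were TMEM254 (0.23) and MACF1 (0.28), and near RTL1 TCF12-DT (0.18), MT2A (0.21) and NCK1 (0.26). Apart from SNORD114-24, none of these genes lies on chromosome 14.

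**Figure D4:**
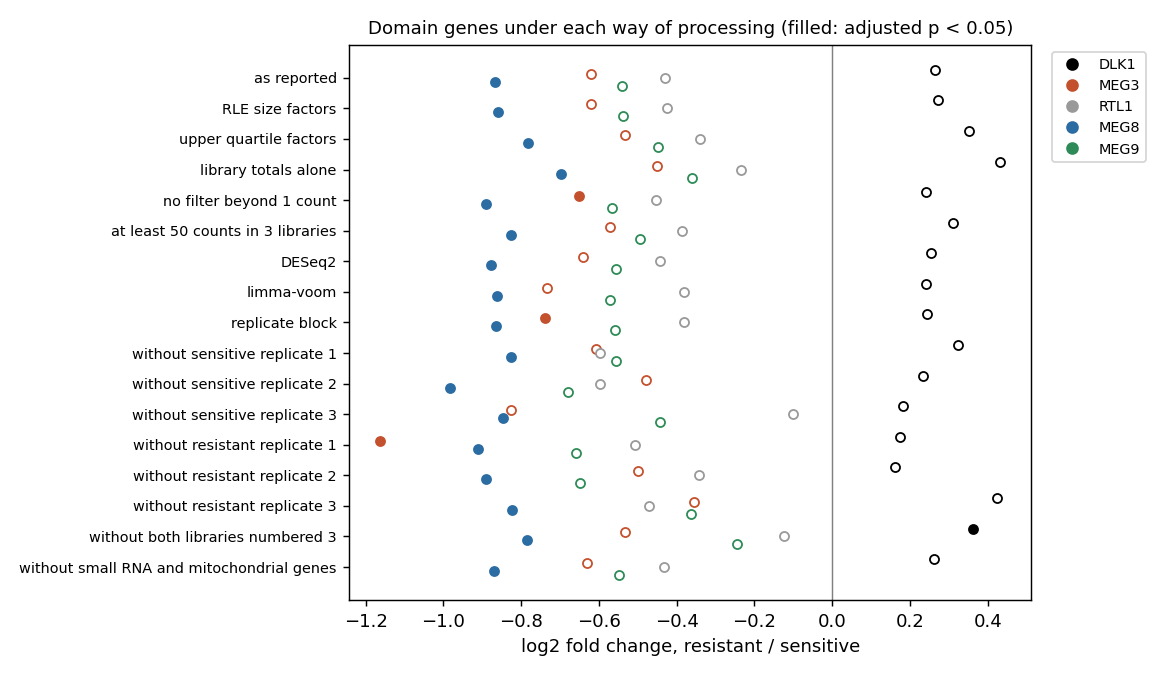
Log2 fold change (resistant against sensitive) of DLK1, MEG3, RTL1, MEG8 and MEG9 in the analysis as reported (top) and in 16 alternatives, with points filled where the adjusted p was below 0.05. MEG8 is filled in each, MEG3 in 3 and DLK1 in 1 of the alternatives, and no gene changes sign.

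The plot of fold changes under the alternatives shows MEG8 between −0.98 and −0.70, MEG3 between −1.16 and −0.35 and MEG9 between −0.68 and −0.24. RTL1 lay between −0.60 and −0.10 and DLK1 between 0.16 and 0.43. MEG9 and RTL1 passed in none of the 16 alternatives.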

How the data were processed

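Gene expression was measured by RNA-seq in 3 azacitidine-sensitive and 3 azacitidine-resistant K562 libraries, made with a stranded total RNA kit after ribosomal RNA removal per the labels' protocols. The authors deposited unnormalised counts for each Ensembl gene. The submitters' processing notes name HISAT2 2.2.1, Trimmomatic 0.39, Subread 2.0.3 and featureCounts, and the build GRCh38. Whether the counting used strand, which annotation it used and what it counted, reads or fragments, was not given in the sources used here, so values of overlapping and near-identical genes are uncertain. Positions and exon lengths are from GENCODE 29, found for 58312 of 61487 genes, and symbols, found for 42150, are from a reference name table.

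Counts were filtered with filterByExpr, scaled with TMM and tested with edgeR 4.0.16 (robust quasi-likelihood, two-sided) in R 4.3.3 over all 20891 genes kept. Standard errors are approximate and were taken as the absolute log2 fold change over the root of the quasi-likelihood F. The edgeR step was also run on simulated counts with the same dispersion for every gene. That run cannot show how the test behaves for genes whose libraries vary more, as those of MEG3 do. Gene lists and the 6 genes were chosen with earlier results of these data known. The genes named are the 6, the genes from DLK1 to DIO3 with at least 10 counts, the called and nearest genes beside the domain, up to 5 tested genes per list with the smallest adjusted p, and the 3 genes nearest in pattern to each tested gene (log2 CPM, prior count 2), of which 1 is not reported here. ZNF445, EZH2, EED, DIO1, DIO2, DIO3OS, LINC00239, PPP2R5C, CD2, TRAC, HEY2, the SNORD116 genes and the genes with 0 counts were named outside this rule after their values were seen. Alternatives were RLE, upper quartile or library total scaling, no filter, at least 50 counts in 3 libraries, DESeq2 1.42.0, limma-voom (limma 3.58.1), a replicate block and leaving out libraries. Leaving out small RNA and mitochondrial genes was added after the data were seen.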

Additional observations from a re-analysis of the deposited data

How the results depend on the processing

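MEG8, MEG9 and RTL1 kept their direction and their side of the threshold in all 16 alternatives. MEG3 (−0.62, not called) passed at −0.65 with no filter, at −0.74 with the replicate block (edgeR adjusted p = 0.0348) and at −1.16 without resistant replicate 1, so that 2 of the 6 genes were then called lower; leaving out single libraries gave −1.16 to −0.35. DLK1 (0.27) passed at 0.36 without both libraries numbered 3, then 1 gene higher, and single libraries left out gave 0.16 to 0.42. The 11 lower calls from DLK1 to DIO3 became 7 with upper quartile factors, 4 with library totals alone, 7 at 50 counts or more (22 genes tested), 2 without small RNA and mitochondrial genes (7 tested) and 3 to 13 without single libraries; without both libraries numbered 3, 1 gene was higher. Beside the domain the 4 higher and 3 lower calls became 7 higher with the replicate block, 9 higher and 7 lower without both libraries numbered 3, and 0 to 7 higher without single libraries. Among the 164 tested genes of 10 lists, which include the domain's own genes and its flanks, the 25 higher and 26 lower calls became 43 and 46 without both libraries numbered 3, and 9 to 34 higher without single libraries. The cause of these differences was not tested. For 62 other called genes of the domain, its flanks and the lists, 807 of 968 pairs of gene and alternative kept the call, 161 lost it and 0 changed sign. Library totals alone moved the median of all genes from 0.03 to 0.20 and upper quartile factors to 0.11, and MEG8 was then at −0.70 and −0.78. Same-numbered libraries had correlations of deviations of 0.202, 0.085 and 0.299, resistant replicate 1 correlated best with sensitive replicate 2 (0.23), and the labels do not say that the numbers pair the libraries, so the block was not used. Depth limits DIO3, with 0 counts, and the microRNA genes, most of which had few counts.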

Other observations

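A second imprinted locus, on chromosome 15, also has a long host RNA for C/D box snoRNAs, SNHG14, which went from 50.3 ± 9.94 to 4.86 ± 2.38 CPM (SD, n = 3 per group). Of the 84 snoRNA genes within its span, 4 had counts, 14 in all over the sensitive libraries and 0 over the resistant libraries, and 0 passed the filter for a test. Reads shared between similar copies may have been split or dropped in the counting. These counts therefore do not show that the snoRNAs were absent. SNORD116-5 had 4 counts, all in sensitive replicate 2, SNORD116-11 had 2 counts in each of sensitive replicates 1 and 2, and SNORD116-17 had 3 counts in sensitive replicate 1 and 2 in sensitive replicate 3.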
